A study of Mus musculus with 4 samples.

Results

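The set described here is made of 9 genes of JAK, STAT and SOCS signalling, chosen by symbol from 30406 genes shared by the feature lists of 4 single-cell RNA sequencing libraries. The members are the kinases Jak1, Jak2 and Tyk2, the transcription factors Stat2, Stat3, Stat4 and Irf9, and the inhibitors Socs1 and Socs3, and all 9 were found in every library. The libraries held live CD45.2+ cells, a marker of immune cells, sorted from brains that carried GL261 glioma, a transplanted tumour used as a model of glioblastoma. Each of the 4 groups was 1 library: untreated wild-type (WT) mice and untreated IFNaR-/- mice (called KO below) sorted on day 20, and WT and IFNaR-/- mice given anti-PD1 and sorted on day 25. Anti-PD1, an antibody against the T cell checkpoint receptor PD-1, was given at 200 ug per mouse on days 7, 11, 15 and 19. Suspensions were pooled before the sort and the number of mice in a pool was not given. The labels state that after anti-PD1 CD3+ and CD3- cells were combined in equal parts, which the untreated groups were not. The labels do not say which chain or exon of the type I interferon receptor is missing in IFNaR-/- mice, nor the ages of the mice, and in every group the tumour cells are a graft from a cell line. One step of the protocol names lung cells, whereas all other labels say brain.

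Cytokine receptors of this class have no kinase of their own. Janus kinases (JAKs) bound to the receptor tails phosphorylate STAT proteins, which then enter the nucleus and bind promoters. The type I interferon receptor works through Jak1 and Tyk2, and its main product is a complex of Stat2 with a partner STAT and Irf9, which binds the interferon-stimulated response element (ISRE). Interleukin-6 family and interleukin-10 receptors act largely through Stat3, and the interleukin-12 receptor acts through Jak2, Tyk2 and Stat4. Socs1 and Socs3 are induced by these pathways and inhibit the receptors and kinases in return, Socs1 mainly on interferon receptors and Socs3 mainly on receptors with the gp130 chain.

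Promoter sequences are shown for 3 members that were lower in KO cells, because they hold the letters of elements that STAT complexes bind. They come from RefSeq on build GRCm38.p6, run 5′ to 3′ on the gene's strand, and belong to the 250 bases before the start that RefSeq gives for the gene. Capitals mark the ISRE core (GAAANNGAAA or its reverse complement) in Stat2 and Socs1, and the GAS element (TTCNNNGAA, its own reverse complement pattern) in Socs3. The Stat2 stretch lies at chr10:128270248-128270497 on the plus strand.
Stat2: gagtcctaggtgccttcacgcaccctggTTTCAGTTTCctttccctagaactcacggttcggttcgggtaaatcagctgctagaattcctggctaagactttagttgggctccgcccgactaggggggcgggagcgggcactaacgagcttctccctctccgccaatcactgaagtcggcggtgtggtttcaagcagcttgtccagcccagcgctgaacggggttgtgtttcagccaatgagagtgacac
The Socs1 stretch lies at chr16:10785537-10785786 on the minus strand, and its capitals are a pair of ISRE cores that share 4 bases.
Socs1: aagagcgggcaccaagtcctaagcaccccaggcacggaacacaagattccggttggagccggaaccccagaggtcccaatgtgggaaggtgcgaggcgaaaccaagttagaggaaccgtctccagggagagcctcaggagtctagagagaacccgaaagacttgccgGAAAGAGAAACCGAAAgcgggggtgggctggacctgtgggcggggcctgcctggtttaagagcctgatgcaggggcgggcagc
The Socs3 stretch lies at chr11:117969452-117969616 on the minus strand and is 165 bases long, since it stops where an exon annotated by GENCODE begins. GENCODE places the start of Socs3 further upstream, so this stretch lies inside the gene as GENCODE draws it.
Socs3: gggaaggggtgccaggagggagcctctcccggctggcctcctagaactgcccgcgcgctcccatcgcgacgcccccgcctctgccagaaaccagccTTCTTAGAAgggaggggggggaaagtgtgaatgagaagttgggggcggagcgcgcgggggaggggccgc
The first base of the match lay 222 bases before the start in Stat2, 83 and 77 bases before it in Socs1, and 154 bases before it in Socs3. ISRE cores were found on either strand in 978 of 32851 RefSeq promoter windows of that length (2.98%), and GAS elements in 2306 (7.02%). Neither was found in the windows of Jak1, Jak2, Tyk2 or Stat3, in either annotated start of Irf9, or in the first start of Stat4, whereas the second start of Stat4 held an ISRE core. Both Irf9 windows lie inside the gene as GENCODE draws it, from chr14:55603571 on the plus strand. The bases before that GENCODE start of Irf9 were not searched. These matches describe letters and no binding was measured.

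Levels are given as CPM, counts of a gene per 1e+06 UMIs summed over all cells that passed the marker gate of a lineage in that library, and are compared between lineages and libraries but not between genes. With 1 library per group there is no replicate and no test: the 95% intervals printed are exact intervals for counting error only, and cover neither mice nor library preparation. A gene was called lower or higher in KO at a 2-fold difference, if it had at least 50 UMIs in the pair, and a lineage was compared where both libraries had at least 50 cells. The number of cells compared ran from 53 NK cells in untreated KO to 4424 monocytes/macrophages in anti-PD1 WT.

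The 4 libraries differed in more than their labels. They held 3705 to 9530 barcodes and 32410040 to 94732545 UMIs (unique molecular identifiers, each standing for 1 captured transcript), and 24331 of 28661 barcodes were used after filters. Cells were assigned to lineages by raw counts of marker genes that are not members, which placed 55.5% to 67.4% of the cells of a library. After anti-PD1 the T cell gates held 424 of 8742 cells in WT and 555 of 7881 in KO. Another 2847 and 3506 cells were in no gate, and monocytes/macrophages alone made 50.6% and 35.4% of the cells. An equal mix of CD3+ and CD3- cells was therefore not seen in the gated cells. Untreated, the T cell gates held 1096 of 4982 cells in WT and 544 of 2726 in KO. Among T cells, UMIs of T cell receptor variable segments per UMI of constant segments were 0.0175 in WT and 0.0148 in KO without treatment, and 2.07 in WT and 0.0808 in KO after anti-PD1. Anti-PD1 WT therefore stood apart from the other 3 libraries, although the labels name a single 5′ kit for all, and what it adds to the KO and WT contrast after anti-PD1 cannot be told apart from genotype. The 2 anti-PD1 libraries also shared 95 barcodes, 1.08% of the smaller library, against 0 to 3 in the other pairs. As a check of the labels, Ifnar1 transcripts were present in KO cells: in the monocyte/macrophage gate the level was 129 CPM in WT and 139 in KO without treatment, and 83.7 in WT and 140 in KO after anti-PD1. For Ifnar2 the 4 levels in this order were 130, 94.2, 312 and 199 CPM. Since the missing part of the receptor is not given, neither level checks the genotype, but Ifit3, a classical interferon-induced gene, was 190-fold lower in untreated KO and 91.6-fold lower in anti-PD1 KO cells of this gate.

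The gates were checked with genes they do not use. Lck, a T cell kinase, stood at 314 to 547 CPM in the CD8 and CD4 T gates and at most 6.97 in the monocyte/macrophage gate. In the CD8 T gate the sum of Nkg7, Ccl5, Gzmb, Gzmk and Pdcd1 differed between genotypes. It was 7437 CPM in WT and 5712 in KO without treatment, and 22698 in WT and 8918 in KO after anti-PD1. The neutrophil gate held S100a8, a neutrophil gene, at 10848 and 7347 CPM in untreated WT and KO but at 48.4 and 222 after anti-PD1, where C1q transcripts of macrophages reached 15537 and 11596 CPM. It was therefore not compared after anti-PD1, a choice made after these values were seen, and in the untreated pair it still held C1q at 2541 and 2753 CPM. In the dendritic gate C1q stood at 227 and 203 CPM in the untreated pair and at 3484 and 2605 after anti-PD1, while Flt3, a dendritic cell receptor, was at 191, 290, 45.2 and 77.7 CPM in untreated WT, untreated KO, anti-PD1 WT and anti-PD1 KO. Ly6c2, a gene of recently recruited monocytes that is itself induced by interferon, was at 1428, 88.4, 1113 and 13.1 CPM in the monocyte/macrophage gate in the same order, so the KO libraries of this gate held far fewer Ly6c2 transcripts. The part of these differences in the results below was not tested, except where values within C1q classes are given.

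Over the 12 lineage and pair comparisons, the members that were lower in KO at least 2-fold were Stat2, Irf9, Socs1 and Socs3, and the only call in the other direction was Stat4 in CD8 T cells after anti-PD1. Stat2 was called lower in 8 of 11 comparisons with enough UMIs, Irf9 in 8 of 12, Socs1 in 7 of 12 and Socs3 in 3 of 12. Jak1, Jak2, Tyk2 and Stat3 were called in none of 12. In the untreated pair, 2 of 9 members were called lower in monocytes/macrophages, where 4.29% of all genes with enough UMIs were, and none higher, against 4.03% of all genes. In microglia 1 of 8 was called lower (2.67% of all genes) and none higher (2.3%). Among dendritic cells 1 of 9 was lower (3.37%) and none higher (2.7%). The neutrophil gate had 3 of 8 lower (3.89%) and none higher (4.72%). For CD8 T cells the count was 2 of 9 lower (1.25%) and none higher (1.58%), for CD4 T cells 1 of 9 lower (2.01%) and none higher (2.37%), and for NK cells 1 of 9 lower (2.42%) and none higher (2%).

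After anti-PD1 a larger share of all genes passed the 2-fold limit in every lineage compared in both pairs, so the same count of members stands against a higher background. In monocytes/macrophages 4 of 9 members were lower (7.94% of all genes) and none higher (10.2%). Microglia had 3 of 9 lower (7.86%) and none higher (14.4%). Among dendritic cells 3 of 9 were lower (9.82%) and none higher (8.63%). CD8 T cells had 2 of 9 lower (5.5%) and 1 higher (8.66%), and CD4 T cells had 3 of 8 lower (6.55%) and none higher (7.63%). The median log2 ratio of KO to WT over the members was -0.54 in untreated monocytes/macrophages against 0.05 over all genes, and -0.34 against 0.11 after anti-PD1. In CD8 T cells it was 0.17 against 0.09, and 0.16 against 0.20 after anti-PD1, so that the middle member of the set was not lower there. Members differed widely within each lineage, as the plot of ratios shows.

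**Figure D1:**
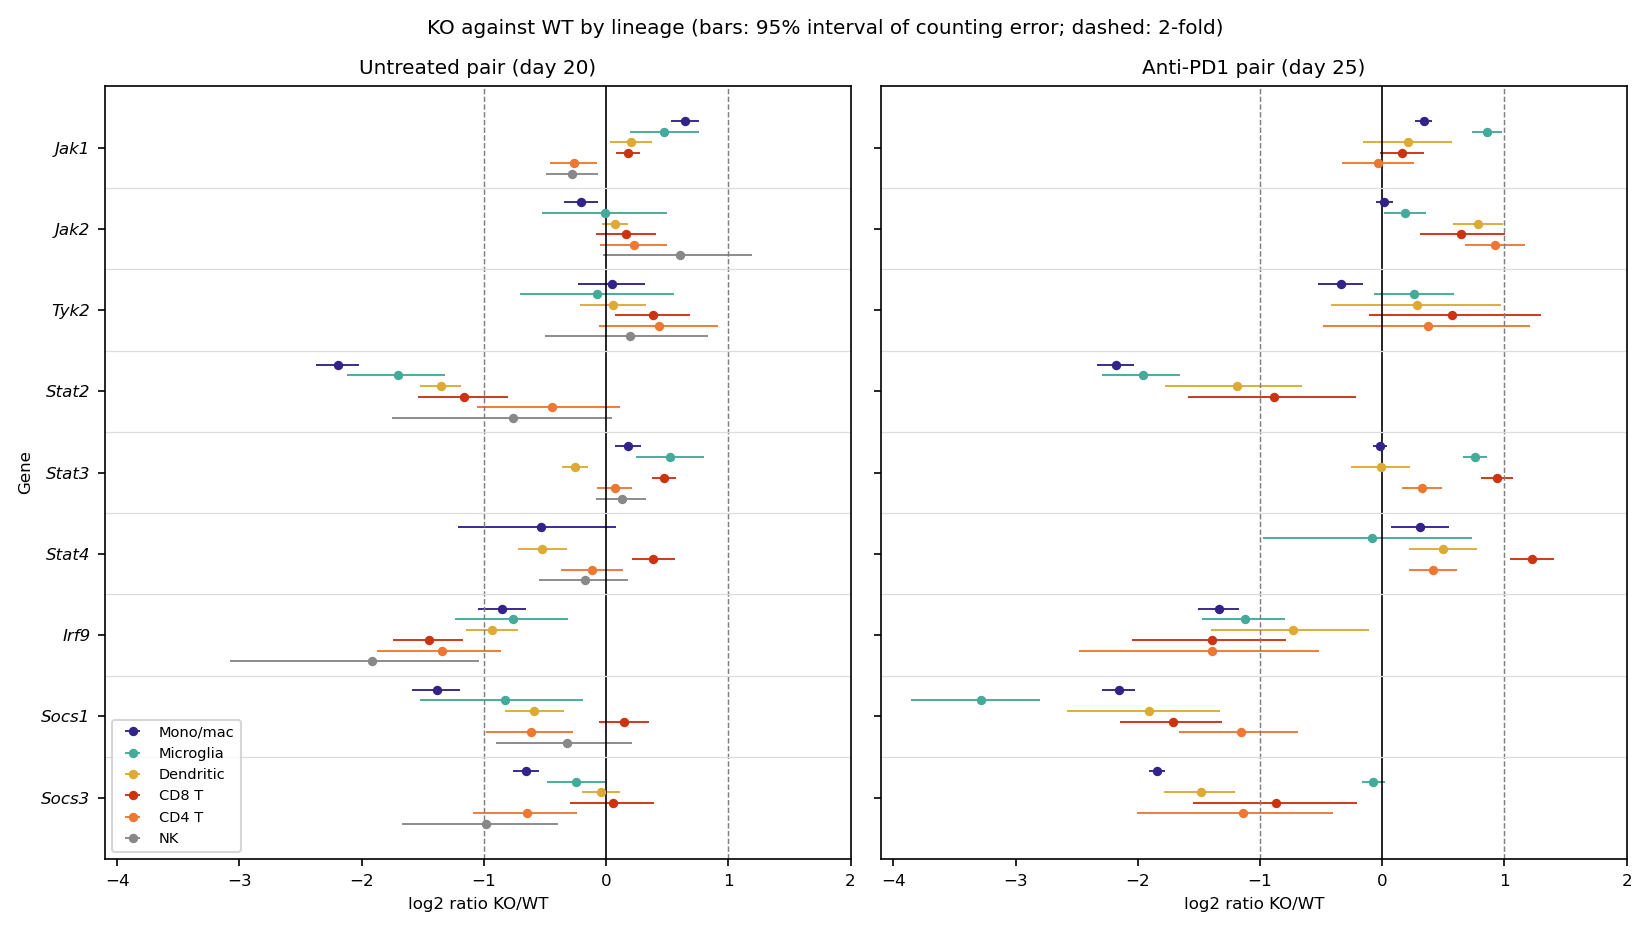
Log2 ratio of KO (IFNaR-/-) to WT CPM for the 9 genes in 6 lineages, untreated pair on the left and anti-PD1 pair on the right; points are ratios, bars 95% intervals of counting error, and dashed lines 2-fold. Stat2, Irf9 and Socs1 lie mostly to the left of 0, Jak1 and Stat3 near or to the right of it, and Socs3 is further left after anti-PD1 in monocytes/macrophages and dendritic cells; the neutrophil gate and members with too few UMIs are not drawn.

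Among the factors of the interferon complex, Stat2 (ENSMUSG00000040033, chr10:128270559-128292849, plus strand, GRCm38) was called lower in KO in every myeloid comparison. In monocytes/macrophages it stood at 266 CPM in WT and 58.0 in KO without treatment, and 92.5 in WT and 20.4 in KO after anti-PD1. Both KO libraries were below both WT libraries, 4.59-fold lower in the untreated pair (95% interval 4.07 to 5.20) and 4.53-fold lower after anti-PD1 (4.08 to 5.04). In microglia the levels were 176, 53.8, 71.6 and 18.3 CPM in the same order, 3.25-fold lower (2.49 to 4.35) and 3.89-fold lower (3.16 to 4.89) in KO. The second of these, a log2 ratio of -1.96, ran from -2.27 to -1.11 under the alternatives in processing. Dendritic cells had 261, 102, 94.4 and 41.1 CPM, 2.55-fold lower (2.27 to 2.87) and 2.28-fold lower (1.57 to 3.43) in KO, and strict gates ended the second of these calls (log2 -0.72 in place of -1.19). The neutrophil gate of the untreated pair had 230 CPM in WT and 54.3 in KO, 4.21-fold lower (3.41 to 5.28).

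Lymphocytes had less Stat2 at the start. In untreated WT the level was 38.9 CPM in CD8 T cells, 36.9 in CD4 T cells and 43.5 in NK cells, 3 values with overlapping intervals and all below the 176 CPM of microglia. CD8 T cells had 17.3 CPM in untreated KO, and after anti-PD1 39.2 in WT and 21.1 in KO, which made Stat2 2.24-fold lower (1.75 to 2.91) and 1.85-fold lower (1.16 to 3.0) in KO. In CD4 T cells (36.9 against 26.9 CPM) and NK cells (43.5 against 24.9 CPM) of the untreated pair the intervals of the log2 ratio, -1.06 to 0.12 and -1.75 to 0.05, included 0. Stat2 in CD4 T cells after anti-PD1 rested on 16 and 8 UMIs and was not compared. Carry-over of myeloid transcripts was gauged by Lyz2, a myeloid gene, which in the T and NK gates stood at 0.280% to 2.71% of its monocyte/macrophage level. At the same percentages Stat2 would stand at 0.163 to 1.64 CPM in these gates, and at the percentages of C1q at 0.438 to 4.05 CPM, below all the levels measured there.

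The order of the lineages by Stat2 in untreated WT was monocytes/macrophages (266 CPM), dendritic cells (261), the neutrophil gate (230), microglia (176), regulatory T cells (90.7), B cells (86.2), NK cells (43.5), CD8 T cells (38.9) and CD4 T cells (36.9). Neighbours in the first 3 did not differ beyond their intervals, nor did regulatory T from B cells, nor the last 3 from each other. In untreated KO dendritic cells led at 102 CPM, and monocytes/macrophages (58.0), the neutrophil gate (54.3) and microglia (53.8) had overlapping intervals. Anti-PD1 KO cells lay within 15.3 to 41.1 CPM in all gates, with each neighbour's interval overlapping the next.

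Irf9, the DNA-binding partner of Stat2 (ENSMUSG00000002325, chr14:55603571-55610030, plus strand), was lower in KO in all 12 comparisons, with every interval below 0. Its log2 ratios ran from -1.91 to -0.73. In CD8 T cells it stood at 74.4 CPM in WT and 27.2 in KO without treatment, and 57.4 in WT and 21.7 in KO after anti-PD1, 2.73-fold lower (2.25 to 3.35) and 2.63-fold lower (1.72 to 4.12) in KO. CD4 T cells had 80.4, 31.5, 62.1 and 22.9 CPM in this order, 2.53-fold lower (1.82 to 3.67) and 2.62-fold lower (1.43 to 5.57). NK cells of the untreated pair had 70.0 CPM in WT and 17.8 in KO, 3.76-fold lower (2.05 to 8.44), on 103 and 10 UMIs.

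In the myeloid lineages Irf9 differed by less in the untreated pair. Monocytes/macrophages had 99.8, 55.3, 47.6 and 18.8 CPM in untreated WT, untreated KO, anti-PD1 WT and anti-PD1 KO, 1.80-fold lower (1.58 to 2.07) and 2.52-fold lower (2.26 to 2.84) in KO. In microglia the levels were 84.9, 49.8, 38.4 and 17.6 CPM, 1.70-fold lower (1.24 to 2.35) and 2.18-fold lower (1.73 to 2.78), the latter just short of 2-fold with loose gates (log2 -0.97) or with matching on intron length (-0.96). The neutrophil gate of the untreated pair had 118 CPM in WT and 53.8 in KO, 2.18-fold lower (1.73 to 2.78), a call that strict gates (log2 -0.88) and the stricter cell filter (-0.98) ended. Dendritic cells had the highest untreated WT level at 136 CPM, with 71.0 in KO, 1.91-fold lower (1.65 to 2.22), and after anti-PD1 had 57.5 and 34.4 CPM, 1.66-fold lower (1.08 to 2.64). In untreated WT each lineage overlapped its neighbour in the order from dendritic cells down to NK cells, so the lineages formed 1 continuous range from 70.0 to 136 CPM. In untreated WT, Stat2 and Irf9 thus ordered the lineages differently: Stat2 was several-fold lower in CD8 T, CD4 T and NK cells than in myeloid cells, while Irf9 in these 3 gates overlapped microglia. This did not hold in untreated KO. There Irf9 in CD8 T cells (27.2 CPM) and NK cells (17.8) lay below microglia (49.8), with intervals apart, and only CD4 T cells (31.5) overlapped microglia.

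**Figure D2:**
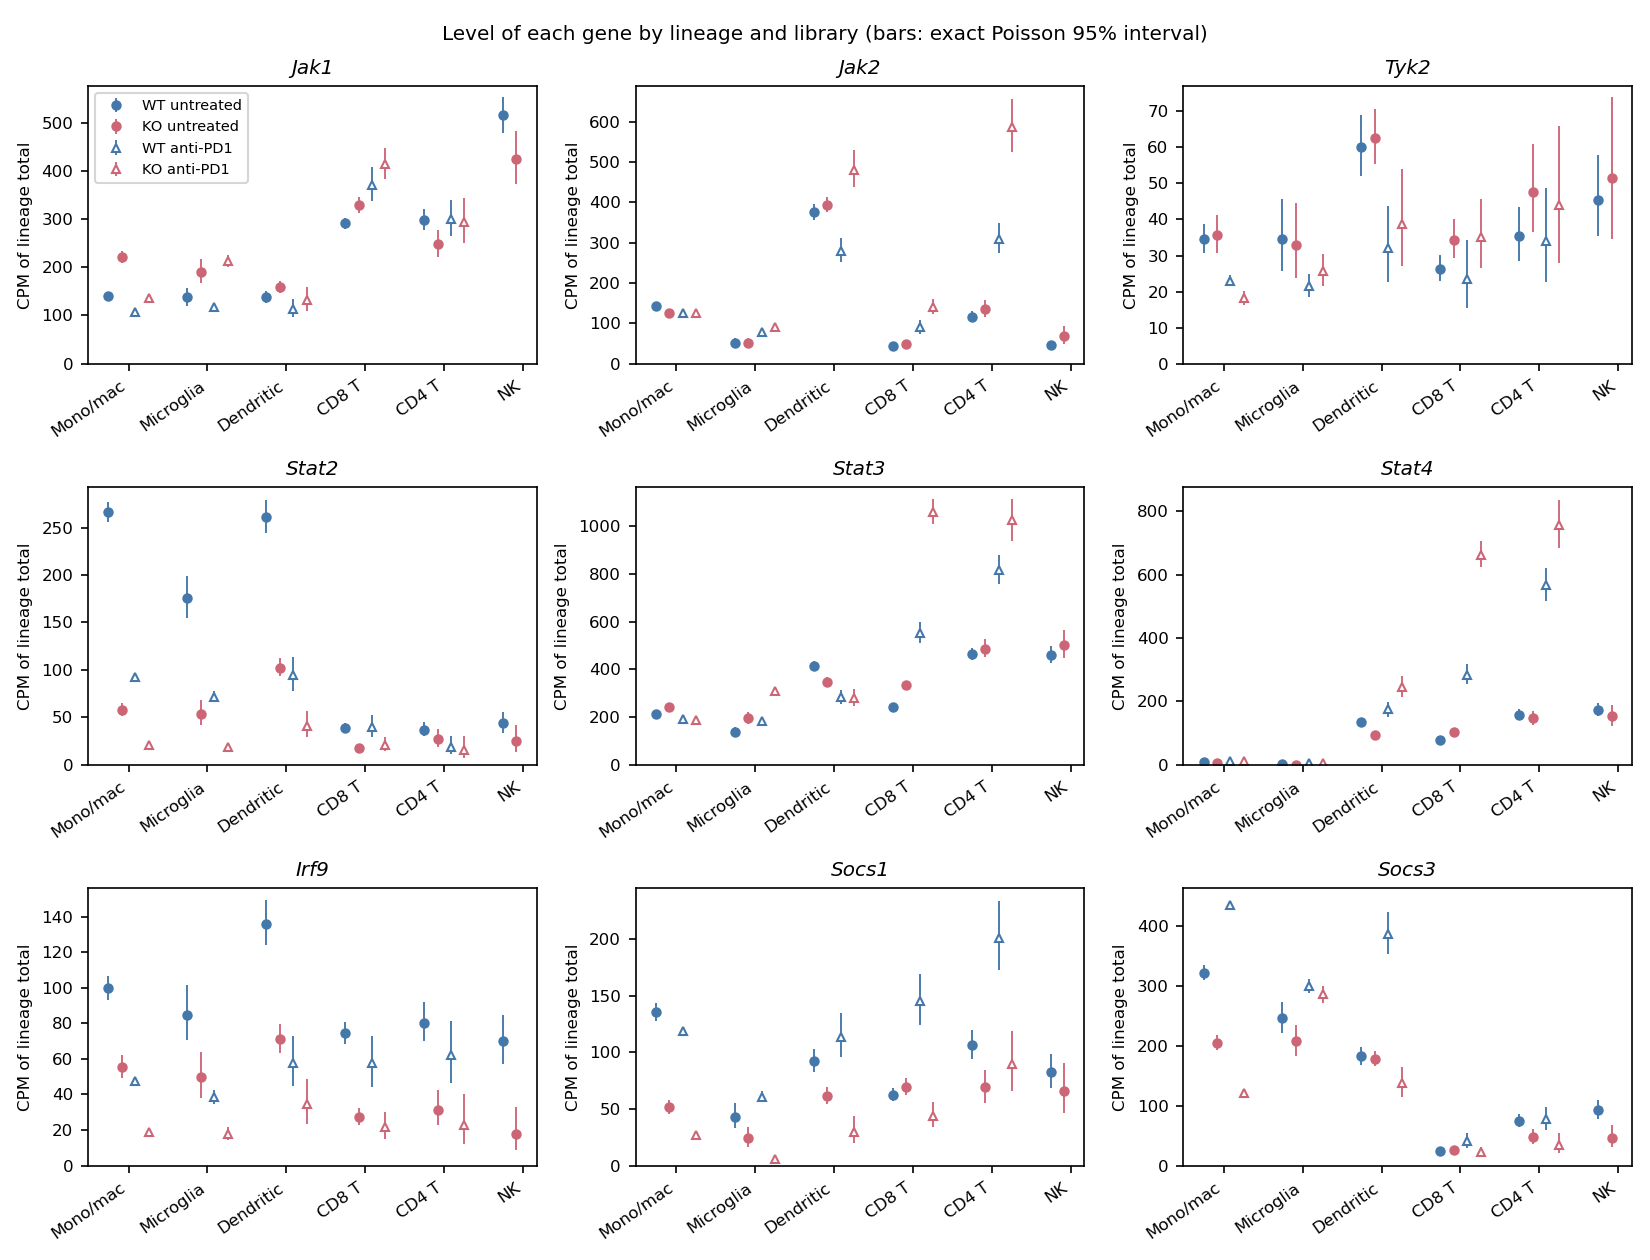
Level in CPM of the lineage total (linear vertical axes, 1 panel per gene) by lineage for untreated WT, untreated KO, anti-PD1 WT and anti-PD1 KO; each point is 1 library and bars are exact Poisson 95% intervals. Stat2 is highest in the untreated WT myeloid gates, Stat4 is high in lymphocytes and near 0 in monocytes/macrophages and microglia, and Socs3 is high in myeloid gates; NK cells have no anti-PD1 points.

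Among the kinases, Jak1 (ENSMUSG00000028530, chr4:101152367-101265282, minus strand) serves interferon, gp130 and common gamma chain receptors. Jak1 was higher in KO microglia and monocytes/macrophages by less than 2-fold. In dendritic cells the KO level was 1.15-fold that of WT (1.02 to 1.30) without treatment. After anti-PD1 it was 1.16-fold (0.899 to 1.49), an interval that included no difference. Microglia had 137 CPM in WT and 191 in KO without treatment, and 117 in WT and 213 in KO after anti-PD1, 1.39-fold higher (1.15 to 1.69) and 1.81-fold higher (1.67 to 1.98). Both KO microglia libraries were above both WT libraries, but the log2 ratio after anti-PD1, 0.86, was 0.23 against genes of like summed intron length and 1.10 with thinned cells. In monocytes/macrophages the levels were 141, 221, 108 and 136 CPM, 1.57-fold higher (1.44 to 1.70) and 1.27-fold higher (1.21 to 1.33), but the second of these turned to a log2 ratio of -0.11 by the same intron-length comparison. Jak1 has 105689 intron bases, and whether intronic reads were counted alike in the 2 anti-PD1 libraries was not tested. In lymphocytes the untreated pair went both ways: 291 and 330 CPM in CD8 T cells of WT and KO, 298 and 249 in CD4 T cells, and 516 and 425 in NK cells. The CD4 T log2 ratio of -0.26 became -1.09, past 2-fold, with each cell thinned to 1000 UMIs, where 28.5% of WT and 15.0% of KO cells had a Jak1 UMI (85.1% and 85.8% unthinned). NK cells held the highest untreated level in both genotypes, apart from their neighbours in the order in both, and the T cell gates stood above the monocyte/macrophage, microglia and dendritic gates in all 4 libraries, although the intervals of CD4 T cells and monocytes/macrophages overlapped in untreated KO.

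Jak2 (ENSMUSG00000024789, chr19:29251828-29313080, plus strand), the kinase of interleukin-12 and colony-stimulating factor receptors, was highest in dendritic cells of the untreated libraries. In untreated WT and KO dendritic cells stood at 376 and 394 CPM, and the next gate, neutrophils, at 147 and 149, with intervals well apart. After anti-PD1 CD4 T cells ranked first and dendritic cells next in both genotypes, with overlapping intervals. Monocytes/macrophages stayed between 124 and 143 CPM in all 4 libraries. After anti-PD1, Jak2 was higher in KO than in WT dendritic cells (280 and 482 CPM, 1.72-fold, 1.49 to 1.99), CD4 T cells (311 and 589 CPM, 1.89-fold, 1.60 to 2.24) and CD8 T cells (89.6 and 141 CPM, 1.56-fold, 1.24 to 2.0). All were short of 2-fold, but dendritic and CD4 T cells passed it under strict gates (log2 1.22 and 1.07) and dendritic and CD8 T cells when thinned (1.04 and 1.10). Against genes of like intron length, the log2 ratio in CD8 T cells was 0.15 in place of 0.65. In the untreated pair the same 3 gates had log2 ratios of 0.07, 0.23 and 0.17, each with an interval that included 0. Whether the ratio differed between the pairs was not tested.

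Tyk2 (ENSMUSG00000032175, chr9:21104068-21131243, minus strand), the kinase bound to Ifnar1, was highest in dendritic cells and lowest in CD8 T cells of untreated WT, with intervals apart (52.2 to 69.1 and 22.9 to 30.2 CPM). Its level ran from 26.4 to 60.2 CPM over the 9 gates of untreated WT, and each neighbour in that order overlapped the next. Monocytes/macrophages had 34.5 CPM in WT and 35.6 in KO without treatment, and 23.0 in WT and 18.2 in KO after anti-PD1. Of 12 intervals of the log2 ratio, 1 lay above 0 (CD8 T cells of the untreated pair, 26.4 and 34.4 CPM, 1.31-fold, 1.05 to 1.61) and 1 below 0 (monocytes/macrophages after anti-PD1, log2 -0.34). The other 10 included 0, and the widest, in CD4 T cells after anti-PD1, spanned -0.48 to 1.21, so a difference of 2-fold could not be seen or set aside there at this depth.

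Stat3 (ENSMUSG00000004040, chr11:100885098-100939540, minus strand), the factor of interleukin-6 and interleukin-10 signalling, was higher in KO in microglia and CD8 T cells in both pairs. CD8 T cells had 239 CPM in WT and 332 in KO without treatment, and 553 in WT and 1061 in KO after anti-PD1, 1.39-fold higher (1.30 to 1.48) and 1.92-fold higher (1.75 to 2.10). The latter, a log2 ratio of 0.94, ran from 0.58 to 0.97 under the alternatives in processing. In microglia the levels were 136, 195, 182 and 307 CPM, 1.44-fold higher (1.18 to 1.75) and 1.69-fold higher (1.58 to 1.81), the latter a log2 ratio of 0.20 in place of 0.76 against genes of like intron length. Monocytes/macrophages stood at 213, 241, 190 and 188 CPM, the narrowest spread of the gates compared in both pairs, and dendritic cells at 414, 348, 282 and 280 CPM. CD4 T cells (464 CPM) and NK cells (460) led untreated WT with overlapping intervals, and microglia were last at 136 CPM, overlapping B cells at 142. None of the Stat3 ratios reached 2-fold.

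Stat4 (ENSMUSG00000062939, chr1:51987148-52107189, plus strand), the factor of interleukin-12 signalling, split the lineages. In untreated WT it stood at 173 CPM in NK cells, 158 in CD4 T cells, 134 in dendritic cells, 86.2 in B cells, 78.7 in CD8 T cells and 47.6 in regulatory T cells. Monocytes/macrophages had 8.46, 5.78, 10.2 and 12.6 CPM in untreated WT, untreated KO, anti-PD1 WT and anti-PD1 KO. Microglia had 2.83, 0, 4.01 and 3.74 CPM, on 4, 0, 35 and 20 UMIs. In the untreated pair the microglia gate was therefore not compared, and the 0 in untreated KO has an upper limit of 2.96 CPM by the exact interval. The dendritic gate of untreated WT stood far above the monocyte/macrophage gate (134 and 8.46 CPM), although both are myeloid.

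CD8 T cells had the only call above 2-fold in KO. Stat4 stood at 78.7 CPM in WT and 103 in KO without treatment, and 284 in WT and 663 in KO after anti-PD1, 1.31-fold higher (1.16 to 1.48) and 2.34-fold higher (2.06 to 2.66). After each cell was thinned to 1000 UMIs, 18.3% of CD8 T cells had a Stat4 UMI in WT and 45.3% in KO after anti-PD1, against 62.6% and 73.8% unthinned at median depths of 4660 and 3372 UMIs. The thinned share in microglia, which had almost no Stat4, was 0.299% and 0.261%. The call was lost when genes were compared with others of like summed intron length (log2 0.58 in place of 1.22), and Stat4 has the longest summed intron length of the members, 116170 bases. CD4 T cells had 158, 146, 567 and 757 CPM, 1.33-fold higher (1.17 to 1.53) in KO after anti-PD1, a log2 ratio that fell from 0.42 to -0.02 by the same comparison. In dendritic cells the direction differed between the pairs, with 134 and 93.7 CPM in untreated WT and KO and 174 and 245 CPM after anti-PD1.

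Socs1 (ENSMUSG00000038037, chr16:10782240-10785536, minus strand) had the largest ratio of the set. In microglia it stood at 43.2 CPM in WT and 24.1 in KO without treatment, and 60.9 in WT and 6.16 in KO after anti-PD1, 1.78-fold lower (1.14 to 2.87) and 9.75-fold lower (6.95 to 14.5). The anti-PD1 ratio rested on 532 and 33 UMIs and was smaller, a log2 ratio of -2.20 in place of -3.28, under stricter gates. Monocytes/macrophages had 136, 51.8, 119 and 26.8 CPM, 2.61-fold lower (2.29 to 3.0) and 4.45-fold lower (4.07 to 4.89), with both KO libraries below both WT libraries. Dendritic cells had 92.4, 61.5, 114 and 30.0 CPM, 1.5-fold lower (1.27 to 1.78) and 3.75-fold lower (2.51 to 5.98), the latter a log2 ratio of -0.95 under strict gates. In the untreated neutrophil gate Socs1 stood at 102 CPM in WT and 48.7 in KO, 2.09-fold lower (1.63 to 2.71), and the log2 ratio moved from -1.06 to -0.46 under strict gates and to -0.66 with cells weighed alike.

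CD8 T cells had no lower level in KO in the untreated pair. In CD8 T cells Socs1 stood at 62.8 CPM in untreated WT and 69.6 in untreated KO, a log2 ratio of 0.15 with an interval of -0.06 to 0.35 that included 0, so a fall of the size seen in monocytes/macrophages lay outside it. After anti-PD1 it stood at 145 CPM in WT and 44.1 in KO CD8 T cells, 3.28-fold lower (2.48 to 4.43). Anti-PD1 WT thus stood above the other 3 libraries, which lay between 44.1 and 69.6 CPM. CD4 T cells had 106, 69.1, 202 and 89.8 CPM, 1.53-fold lower (1.21 to 1.98) and 2.23-fold lower (1.62 to 3.17), the latter short of 2-fold with matching on intron length (log2 -0.86), and NK cells had 82.9 and 65.9 CPM with an interval of the log2 ratio from -0.90 to 0.21. In the order of untreated WT monocytes/macrophages led alone at 136 CPM, whereas in untreated KO CD8 T cells (69.6), CD4 T cells (69.1), NK cells (65.9) and dendritic cells (61.5) led, each overlapping the next, and the overlaps ran on through monocytes/macrophages (51.8) to the neutrophil gate (48.7).

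Socs3 (ENSMUSG00000053113, chr11:117966079-117970047, minus strand) was called lower in KO in 3 gates after anti-PD1 and in none of the untreated pair, where NK cells lay just short of the limit. Monocytes/macrophages had 322 CPM in WT and 205 in KO without treatment, and 435 in WT and 121 in KO after anti-PD1, 1.57-fold lower (1.47 to 1.69) and 3.59-fold lower (3.43 to 3.75). Dendritic cells had 183, 178, 387 and 138 CPM, 1.03-fold lower (0.922 to 1.14) and 2.80-fold lower (2.30 to 3.45), and here C1q transcripts were also higher after anti-PD1 in the same gate. Microglia kept a high level in all 4 libraries, 246, 207, 300 and 286 CPM, and the log2 ratio after anti-PD1, -0.07, had an interval of -0.16 to 0.02. Socs1 and Socs3 therefore differed in microglia after anti-PD1: 9.75-fold lower for Socs1 against 1.05-fold (0.986 to 1.12) for Socs3, in the same gate and libraries. Monocyte/macrophage markers in this gate also differed between WT and KO after anti-PD1, and their part in either ratio was not tested.

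Lymphocytes had little Socs3. CD8 T cells had 24.7, 25.6, 40.9 and 22.4 CPM in untreated WT, untreated KO, anti-PD1 WT and anti-PD1 KO, the lowest gate in all 4 libraries apart from regulatory T cells of anti-PD1 WT (37.0 CPM). CD4 T cells had 74.9, 47.6, 77.3 and 34.4 CPM, 1.57-fold lower (1.18 to 2.13) and 2.20-fold lower (1.32 to 4.02), the latter short of 2-fold with matching on intron length (log2 -0.85), and NK cells of the untreated pair 93.1 and 46.3 CPM, 1.98-fold lower (1.32 to 3.19). This NK ratio, a log2 of -0.99, passed 2-fold under TMM, DESeq2 factors, loose gates and equal weighting of cells (-1.03 to -1.27), and NK cells were too few to compare after anti-PD1. At the Lyz2 percentage, carried-over Socs3 would be up to 7.73 CPM in the T cell gates, in anti-PD1 WT CD8 T cells, where 40.9 CPM was measured, and at the C1q percentage 15.9 CPM in the same cells. The part of carried-over transcripts in the Socs3 level of T cells was not tested.

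**Figure D3:**
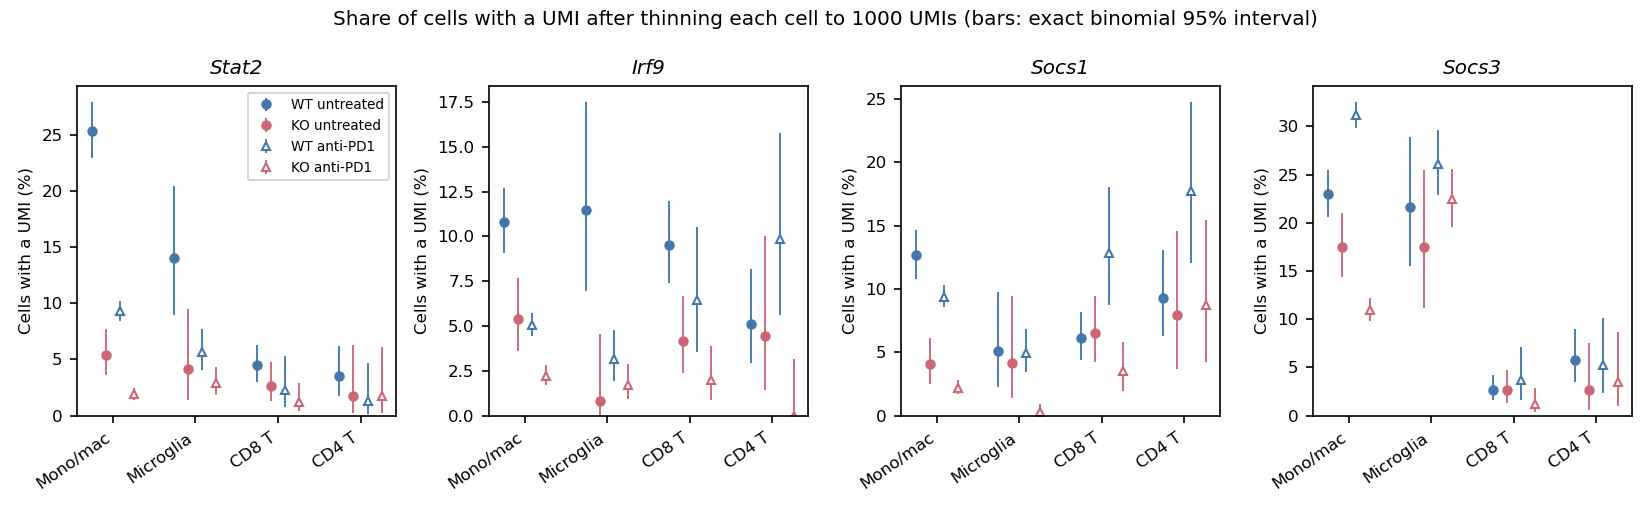
Percent of cells with at least 1 UMI of Stat2, Irf9, Socs1 or Socs3 after each cell was thinned to 1000 UMIs, in 4 lineages and 4 libraries; bars are exact binomial 95% intervals. For Stat2 and Socs1 in monocytes/macrophages both KO libraries lie below both WT libraries, and for Socs3 in microglia all 4 intervals overlap.

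The shares of cells followed the levels for these genes. At 1000 UMIs per cell, Stat2 was seen in 25.4% of untreated WT monocytes/macrophages, 5.38% of untreated KO, 9.27% of WT and 1.88% of KO cells after anti-PD1, and the unthinned shares were 72.3%, 34.6%, 49.2% and 11.3%. Between 7 and 30 cells per library had fewer UMIs and were left out. Socs1 was seen in 12.6%, 4.04%, 9.38% and 2.21% of the same thinned cells, against 42.8%, 27.2%, 36.4% and 10.4% unthinned. Socs3 in microglia was seen in 21.7%, 17.5%, 26.1% and 22.5% of thinned cells, against 53.1%, 59.8%, 78.1% and 64.0% unthinned. For comparison, CD8 T cells, the gate with the lowest Socs3, had a Socs3 UMI in 2.67%, 2.60%, 3.67% and 1.24% of thinned cells, at median depths of 9924, 10045, 4660 and 3372 UMIs against 6894, 8174, 11853 and 5866 in microglia.

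Since the monocyte/macrophage gate mixes cells at several stages, it was also divided by C1q, a complement component of mature macrophages, at 5 UMIs of C1qa, C1qb and C1qc together. The division was added after the data were seen. C1q-high cells were 497 in WT and 343 in KO without treatment, and 3442 in WT and 2579 in KO after anti-PD1, and C1q-low cells 696, 186, 982 and 210. Stat2 in C1q-high cells stood at 182, 52.8, 84.7 and 19.4 CPM, 3.45-fold and 4.36-fold lower in KO. In C1q-low cells it stood at 347, 70.1, 129 and 40.0 CPM, 4.93-fold and 3.19-fold lower. Both classes thus had the difference in both pairs. Socs1 was 2.09-fold and 4.44-fold lower in C1q-high cells and 3.30-fold and 3.54-fold lower in C1q-low cells. Irf9 in the untreated pair was 1.40-fold lower in C1q-high and 1.98-fold lower in C1q-low cells, and 2.41-fold and 2.34-fold lower after anti-PD1. Socs3 was 1.52-fold and 1.53-fold lower in the untreated pair and 3.52-fold and 2.89-fold lower after anti-PD1, in C1q-high and C1q-low cells respectively.

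**Figure D4:**
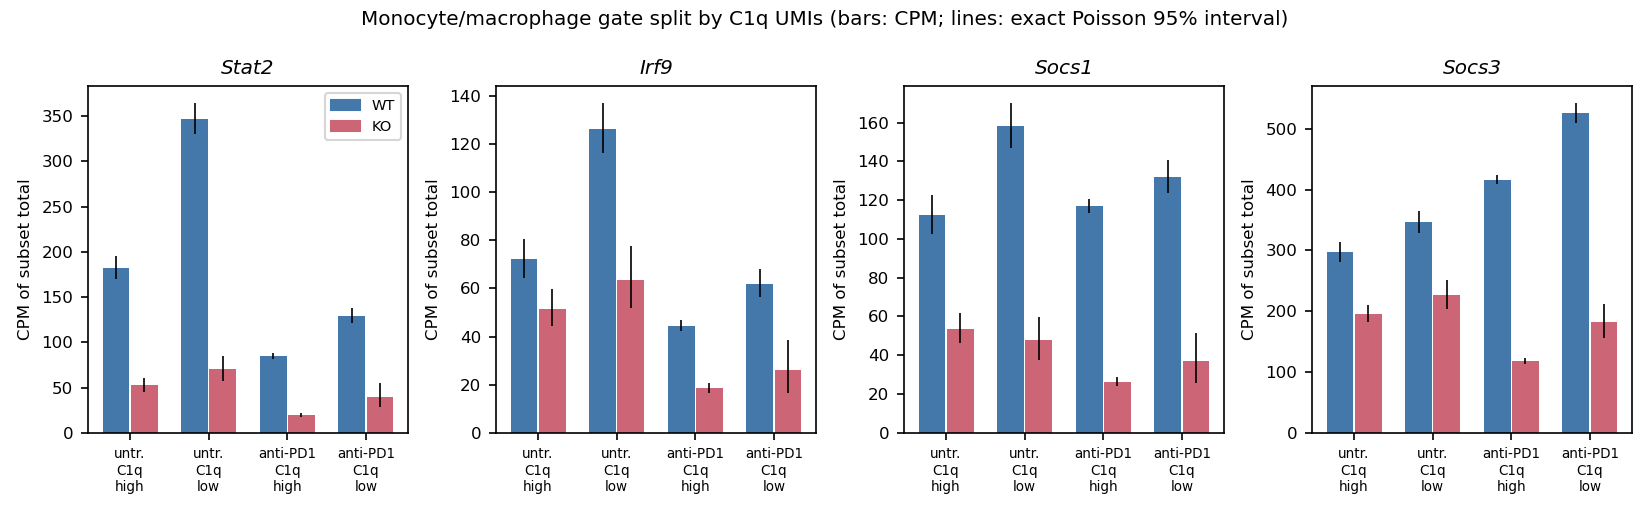
CPM of Stat2, Irf9, Socs1 and Socs3 in C1q-high and C1q-low cells of the monocyte/macrophage gate, WT beside KO, for the untreated and anti-PD1 pairs; bars are 1 library each, lines exact Poisson 95% intervals, and axes start at 0. In every panel the KO bar is below the WT bar in both classes and both pairs.

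The other genes of the pathway were read from a list of 68: 24 receptor chains, 5 other kinases and factors, 17 inhibitors and 22 targets. In untreated monocytes/macrophages 64 had enough UMIs, of which 8 were lower and 1 higher in KO, and after anti-PD1 17 of 61 were lower and 1 higher, beside 4.29% lower and 4.03% higher over all genes in the first pair and 7.94% and 10.2% in the second. The targets held most of these: 6 of 21 were lower in the untreated pair and 12 of 19 after anti-PD1, with none higher in either. Ifit3 (238 and 1.16 CPM in untreated WT and KO), Irf7, an interferon-induced factor (715 and 19.8 CPM), and Usp18, an inhibitor of the type I interferon receptor (126 and 4.82 CPM), led the lower genes of this gate. Only 1 of 21 receptor chains was lower in the untreated pair and 4 of 20 after anti-PD1, and none of the 5 other kinases and factors was called in either.

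In microglia 7 of 55 genes of the list were lower and 1 higher in the untreated pair, and 15 of 59 lower and 10 higher after anti-PD1. Over all genes of this gate 2.67% were lower and 2.3% higher, and 7.86% and 14.4% after anti-PD1, so the count of higher genes of the list was near the background. Usp18 was at 53.1 and 0 CPM in untreated WT and KO microglia, on 75 and 0 UMIs, and at 45.5 and 0.374 CPM after anti-PD1. Dendritic cells had 9 of 60 lower and none higher in the untreated pair, and 18 of 48 lower and 3 higher after anti-PD1, led by Rsad2, an antiviral enzyme (283 and 16.1 CPM in untreated WT and KO), beside 3.37% lower and 2.7% higher over all genes, and 9.82% and 8.63% after anti-PD1. Among CD8 T cells 7 of 60 were lower and 1 higher in the untreated pair, and 11 of 55 lower and 6 higher after anti-PD1, led by Ifit1 (30.3 and 0.657 CPM in untreated WT and KO), beside 1.25% and 1.58% of all genes, and 5.5% and 8.66% after anti-PD1. CD4 T cells had 5 of 55 lower and none higher, and 2 of 41 lower and 1 higher after anti-PD1, with Isg15, a ubiquitin-like interferon-induced protein, at 197, 33.8, 328 and 40.1 CPM in untreated WT, untreated KO, anti-PD1 WT and anti-PD1 KO. Over all genes of CD4 T cells the lower and higher shares were 2.01% and 2.37%, and 6.55% and 7.63% after anti-PD1, so the list was not above the background in the second pair. NK cells of the untreated pair had 6 of 46 lower and 1 higher, and the higher gene was Il4ra, the interleukin-4 receptor chain (46.2 and 99.7 CPM), beside 2.42% lower and 2% higher over all genes. The neutrophil gate had 10 of 57 lower and 3 higher, among the latter Il6st, the gp130 chain (29.3 and 73.8 CPM), beside 3.89% lower and 4.72% higher over all genes.

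Levels of the same gate at day 20 without treatment and day 25 after anti-PD1 are given side by side only, since the day, the sort, the software version and the library differ together with treatment and cannot be told apart. Stat2 in monocytes/macrophages stood at 266 and 92.5 CPM in WT and at 58.0 and 20.4 in KO. Stat4 in CD8 T cells stood at 78.7 and 284 CPM in WT and at 103 and 663 in KO, and Jak2 in CD4 T cells at 116 and 311 CPM in WT and at 136 and 589 in KO. Socs3 in monocytes/macrophages went in opposite directions, from 322 to 435 CPM in WT and from 205 to 121 in KO, as did Socs1 in CD8 T cells, from 62.8 to 145 in WT and from 69.6 to 44.1 in KO.

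Over the 29 lineage and library profiles with at least 50 cells, the genes nearest to each member by Pearson correlation of log2 levels were found among 6234 genes. These profiles share libraries and depth, and the values are descriptions. They include the neutrophil gate of both anti-PD1 libraries, which was not compared between KO and WT because of its marker levels. Stat2 was nearest to Irf1 (r = 0.924), Oasl2 (0.907) and Oasl1 (0.902). Irf9 was nearest to Dtx3l (0.913), Ifi209 (0.888) and Psme2b (0.882). Jak1 was nearest to Pdcd4 (0.901), Gimap6 (0.891) and Txk (0.888), and Jak2 to Pcgf5 (0.868), Alcam (0.849) and Jarid2 (0.815). All of these r values were positive, and the range over the 27 genes named was 0.815 to 0.942. Tyk2 was nearest to Tle3 (0.855), Tpm3 (0.837) and Net1 (0.827), Stat3 to Stat5b (0.876), Pitpnb (0.873) and Runx2 (0.871), and Stat4 to Ly75 (0.936), Mbp (0.927) and Parp4 (0.911). Socs1 was nearest to Snrpc (0.883), Pfdn6 (0.866) and Fxyd5 (0.849), and Socs3 to Osm (0.942), Zfp36 (0.939) and Fos (0.929). Between members, r was highest for Stat3 with Stat4 (0.794) and for Stat2 with Irf9 (0.771), and lowest for Jak1 with Socs3 (-0.766). Socs1 and Socs3 had r = -0.146.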

How the data were processed

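Single-cell RNA sequencing libraries of sorted brain immune cells were analysed, 1 library per group. The deposited values were raw UMI counts per gene and cell barcode. Per the file headers the authors made them with Cell Ranger 3.1.0 (untreated) and Cell Ranger 7.2.0 (anti-PD1), and the submitters' processing notes name mm10 and GRCm38. The settings for intronic reads and cell calling are not given in the sources used here, and both change UMI counts. Of 31053 and 32285 listed genes, the 30406 shared by all 4 libraries held 99.5% to 99.9% of UMIs.

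Barcodes with under 200 genes or over 10% mitochondrial counts were dropped; 21.0%, 24.2%, 0.693% and 3.30% of barcodes failed the second limit in untreated WT, untreated KO, anti-PD1 WT and anti-PD1 KO. Scrublet's automatic threshold marked 1, 0, 1 and 0 cells, so the highest-scoring cells at 0.8% per 1000 barcodes were removed instead (280, 83, 722 and 594), which left 4982, 2726, 8742 and 7881 cells with median UMI counts of 7096, 9478, 8418 and 4934. Gates asked for at least 2 UMIs (T, NK, dendritic) or 3 UMIs (myeloid, microglia, neutrophil, B) of a lineage's genes. They allowed at most 1 UMI of some other lineages, not of all. The neutrophil and dendritic gates set no limit on the myeloid genes. The T gates set a limit on myeloid and B cell genes only. UMIs were summed per gate and library, 0.5 was added to each count for log2 ratios, and intervals were exact (Poisson for levels, conditional binomial for ratios, Clopper-Pearson for shares). The contrast script was tested on simulated data, but the settings and outcome are not given here, so this adds no support to the values.

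The named genes were all members, Ifnar1 and Ifnar2, of the pathway list up to 3 genes per direction with the largest smaller ratio over the pairs (2 where only 1 pair could be compared), and the 3 nearest genes by correlation among those at a mean of 20 CPM or more; not all genes of the list are reported by name. The members and lists were chosen with earlier results of these data known. Alternatives covered cell filters, doublets, gates, scaling (edgeR 4.0.16 TMM, DESeq2 1.42.0 size factors), weighting, thinning, count minimum, pseudocount, intron length (GENCODE annotation on GRCm38), shared barcodes and C1q class, the last 2 added after the data were seen. Tools were scanpy 1.11.5, pandas 2.3.3, scipy 1.17.1, numpy 2.4.6 and matplotlib 3.10.9 in Python 3.11.15, and R 4.3.3.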

Additional observations from a re-analysis of the deposited data

Results flagged for a closer look

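Stat4 in dendritic cells moved in opposite directions in the 2 pairs. The log2 ratio of KO to WT was -0.521 in the untreated pair (134 and 93.7 CPM) and 0.495 after anti-PD1 (174 and 245 CPM), a difference of 1.016 between the pairs. The difference was not tested, since each group is 1 library. In the same gate C1q rose from 227 and 203 CPM to 3484 and 2605 CPM, and the anti-PD1 ratio was -0.03 when each cell weighed alike. The part of the gate's make-up in this result was not tested.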

How the results depend on the processing

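The 27 ratios called at 2-fold were recomputed 401 times under the alternatives: none reversed, 388 stayed past 2-fold and 13 did not. Changing the UMI minimum cannot move a ratio, so the values under those settings stayed past 2-fold by construction. A ratio was left out of these numbers where the gene or gate fell below the UMI or cell limit under an alternative. Of 1136 values for ratios not called, 26 passed 2-fold. Of 362 recomputed counts of members, 333 stayed within 1.5 times the value reported and 29 moved. With each cell thinned to 1000 UMIs, which left 2 to 8 members with enough UMIs in the gates concerned, the count of lower members became 0 in untreated microglia, 2 in untreated dendritic cells, 1 in untreated CD8 T cells, 0 in untreated NK cells, 1 each in anti-PD1 microglia, dendritic cells and CD4 T cells, and 0 in anti-PD1 CD8 T cells; the count of higher members became 1 in anti-PD1 microglia, 1 in anti-PD1 dendritic cells and 2 in anti-PD1 CD8 T cells. With strict gates the lower count was 1 in untreated neutrophils and 2 in untreated CD4 T cells, and the higher count 1 in anti-PD1 dendritic cells and CD4 T cells. Loose gates gave 2 lower members in untreated microglia, CD4 T cells and NK cells, and the stricter cell filter and no UMI minimum gave 2 in untreated microglia. Weighing cells alike gave 3 in untreated microglia, 2 in untreated NK cells and 4 in anti-PD1 CD8 T cells; TMM and DESeq2 size factors gave 2 in untreated NK cells and 4 in anti-PD1 CD8 T cells. Matching on intron length gave 1 lower member in anti-PD1 CD4 T cells and 0 higher in anti-PD1 CD8 T cells. The cause was not tested.

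TMM scaling moved all log2 ratios by -0.10 in untreated CD8 T cells and the neutrophil gate, -0.18 in anti-PD1 monocytes/macrophages, -0.28 in microglia, -0.15 in CD8 T cells and -0.17 in CD4 T cells after anti-PD1. Under TMM or DESeq2 factors the ratios of Tyk2 in untreated monocytes/macrophages and anti-PD1 microglia, Jak2 in the neutrophil gate and in anti-PD1 monocytes/macrophages and microglia, and Socs3 in untreated CD8 T cells changed sign, all at most 0.26 from 0 as reported. Strict gates also ended the calls of Stat2 (log2 -0.72) and Socs1 (-0.95) in anti-PD1 dendritic cells and of Irf9 (-0.88) and Socs1 (-0.46) in the neutrophil gate.

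No paired analysis was possible because each group holds 1 library, and leaving a library out empties its group. Depth limits the values with few UMIs, among them those of NK cells, CD4 T cells and, after anti-PD1, CD8 T and dendritic cells. Intervals cover counting error only, and mice, day, sort and library cannot be told apart.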
